A study of Mus musculus with 25 samples.

Results

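The crosslink sites described here are nucleotides at which the authors called a peak for GFP-tagged SRSF7 (WT) in mouse P19 cells, while no peak of the zinc-knuckle mutant (mutZn) lay close by. A member is a nucleotide of the deposited WT peak list with a score of 3 or more and no nucleotide of the deposited mutZn peak list within 30 nt on the same strand. The score is the number of cDNAs that the authors summed at that nucleotide. Of 329750 WT peak nucleotides with that score, 70566 (21.4%) met the rule, which is 3.45% of the 2045481 nucleotides of the WT list. The other 259184 nucleotides, with a mutZn peak within 30 nt, serve as the comparison set and are called near sites. The members were thus chosen by the WT peak score and by the mutZn peak positions, so a high WT score and a low mutZn level at them are properties of that choice and are given as descriptions that support nothing.

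SRSF7 is a serine/arginine-rich (SR) protein that binds RNA and takes part in pre-mRNA splicing, alternative polyadenylation and mRNA export. It carries an RNA recognition motif followed by a CCHC zinc knuckle, a small zinc-binding fold that contributes to the choice of RNA sequence, and then an arginine/serine-rich tail. In iCLIP, UV light joins protein to RNA in living cells, the complex is immunoprecipitated, and reverse transcription often stops beside the joined nucleotide. Each cDNA thereby marks 1 crosslink event at single-nucleotide resolution.

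P19 is a mouse embryonal carcinoma line. The anti-EGFP iCLIP libraries came from cells with SRSF7-GFP (WT 2, WT 3 and WT 4), SRSF7mutZn-GFP (mutZn 3 and mutZn 4) or SRSF7D27aa-GFP (D27aa 1 and D27aa 2), each irradiated at 254 nm, with 1 library per genotype labelled noUV. The anti-SRSF7 iCLIP libraries came from the SRSF7-GFP OE genotype and are titled GFP_OE (3 and 4), endo_OE (4 and 5) and RRM_OE (3 and 4), together with 1 library of the WT genotype titled endo_WT and single controls that had no UV or no antibody. The piCLIP libraries came from monosomal and polysomal fractions of SRSF7-GFP OE cells, with 2 immunoprecipitates and 1 library titled IgG per fraction. The labels do not say how mutZn, D27aa or RRM_OE were made, whether a tagged line is a clone, or which promoter drives the tag. In the GFP-tagged lines the untagged protein is not said to be removed. The design text gives biological replicates for the tagged proteins, without naming cultures.

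The 25 libraries held from 1153 events (the monosomal IgG library) to 11782376 events (mutZn 3). The WT libraries held 221746, 1099389 and 3952779 events, the mutZn libraries 11782376 and 6436730, and the D27aa libraries 376870 and 388768. Together mutZn was sequenced 3.46 times as deeply as WT. Coordinates are on mm9 and 1-based, and no gene or exon was assigned because no mm9 genome or annotation was used here.

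The WT list rests largely on events outside the WT libraries analysed here. Its header names 4 library numbers, and 3 WT libraries were analysed. The scores of the whole WT list summed to 4232166, of which the 3 WT libraries held 1047880 events (24.8%), while the 2 mutZn libraries accounted for 100% of the mutZn list and the 2 D27aa libraries for 100% of the D27aa list. WT 4 exceeded the list score at 0 of 595981 shared positions, but WT 2 exceeded it at 230 of 25259 and WT 3 at 2277 of 103337, so these 2 libraries are not wholly contained in the score. At the members the score summed to 316238, and WT 4 held 40743 of it (12.9%), compared with 19.7% at the near sites. No event of WT 2, WT 3 or WT 4 fell on 41254 members (58.5%), against 40.9% of near sites. In 3891 members (5.51%) the 3 WT libraries alone reached 3 events, against 17.2% of near sites. In the remaining members at least part of the score has no counterpart in the 3 WT libraries.

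Most members were weak peaks. Their median score was 3, 37910 of them (53.7%) had exactly 3, and the 90th percentile was 7, compared with a median of 4 and a 90th percentile of 12 at the near sites. Just below the score threshold, 126895 nucleotides of score 2 also lay more than 30 nt from a mutZn peak. At the distance threshold, 800 members had their nearest mutZn peak at 31 nt and 774 nucleotides of the same score range had it at 30 nt and were left out. The nearest mutZn peak was a median of 196 nt away, with quartiles of 67 and 1389 nt. It lay between 31 and 100 nt away for 35.5% of members and more than 1000 nt away for 28.8%.

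The raw mutZn libraries were not empty at these places. Within 30 nt of a member, the 2 mutZn libraries together held a median of 10 events, the 3 WT libraries a median of 6, and 56360 members (79.9%) had events in both mutZn 3 and mutZn 4. Only 5110 members (7.24%) had no mutZn event within 30 nt, and 7278 had none in mutZn 3 and 12038 none in mutZn 4 taken alone. A further 7708 (10.9%) had 1 to 2 events, 21207 (30.1%) had 3 to 9, 29073 (41.2%) had 10 to 29, and 859 (1.22%) had 100 or more. The near sites had 100 or more mutZn events within 30 nt in 26.4% of cases.

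**Figure D1:**
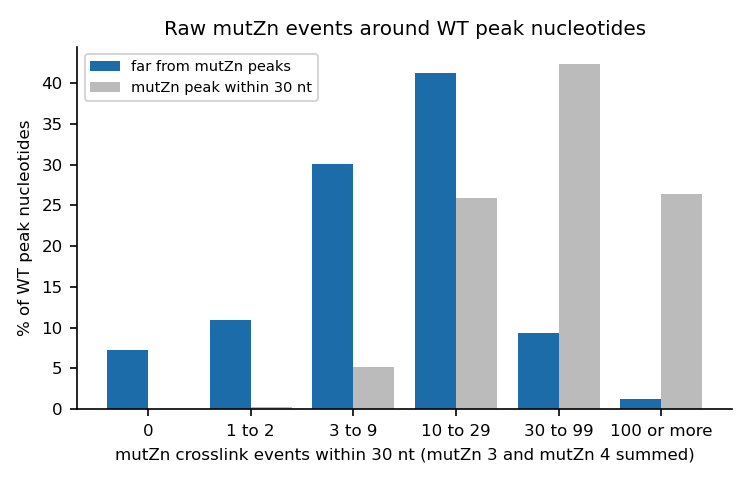
Percentage of WT peak nucleotides (y axis) by the number of mutZn crosslink events within 30 nt on the same strand, mutZn 3 and mutZn 4 summed (x axis), for the 70566 nucleotides far from mutZn peaks (blue) and the 259184 near sites (grey). The blue bars are tallest at 10 to 29 events (41.2%), and 7.24% of far nucleotides have none.

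Scaled to CPM (events per 1000000 events of the library), the level within 30 nt of a member averaged 1.98 in WT but 1.02 in mutZn, giving a mutZn to WT ratio of 0.514. The same ratio was 0.761 at the near sites. The choice of members makes this ratio low, and it carries no test. The mutZn CPM was below the WT CPM at 77.5% of members and above it at 18.4%. At the exact nucleotide the contrast was sharper, with no mutZn event at 63.5% of members and a mutZn to WT ratio of 0.296.

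Members that lacked mutZn events mostly lacked WT events too. Of the 5110, 2959 (57.9%) had no event of WT 2, WT 3 or WT 4 within 30 nt either, so that no analysed WT library shows the site there. The other 2151 had at least 1 WT event and no mutZn event. At 700 members there were 3 or more WT events within 30 nt and none in mutZn, which is 1.35% of the 51935 members with that many WT events. With 10 or more WT events, 132 of 21431 members (0.616%) had none in mutZn, and 112 of those 132 lay in a single stretch of chromosome 12 described next. A count of 0 in mutZn allows up to 0.165 CPM (3 events of 18219106, counting error only).

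The stretch of chromosome 12 held the member cluster with the most nucleotides. Members at most 30 nt apart on 1 strand were joined into clusters, and the cluster at chr12:12260978-12261302 on the plus strand had 104 member nucleotides over 325 nt, with a summed score of 578 and the nearest mutZn peak 94836 nt away. Over its span, member nucleotides and those between them, WT 2 held 9 events, WT 3 held 46 and WT 4 held 158. This is 40.8 ± 0.953 CPM (SD, n = 3). The member nucleotides alone held 154 of these 213 WT events. Over the span the mutZn libraries held 1 and 0 events, and both D27aa libraries held 0. The WT libraries lay close together at about 40 CPM in spite of their different depths, and no mutZn or D27aa library came near them. As a description of a cluster chosen on these events, WT was 736-fold above mutZn, with a counting interval of 131 to 29200 that covers neither the choice nor the spread between libraries. It was at least 10.3-fold above D27aa when 3 events over both D27aa libraries are taken as the floor. The neighbouring cluster at chr12:12261420-12261568, with 24 member nucleotides, had 2, 11 and 46 events in WT 2, WT 3 and WT 4 and 0 in mutZn and in D27aa. There WT was at least 67.9-fold above mutZn and at least 2.86-fold above D27aa by the same floor.

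The whole 5000-nt window from 12260001 on that strand held 178 members and 0 near sites. WT 2 held 28 events there, WT 3 held 130 and WT 4 held 449, equal to 126, 118 and 114 CPM. The mutZn libraries held 6 and 0 events and the D27aa libraries 1 and 0. All WT libraries were therefore far above all mutZn and D27aa libraries over the whole window. Among the anti-SRSF7 libraries, GFP_OE 3 and GFP_OE 4 held 6 and 23 events (47.3 and 48.8 CPM), endo_OE 4 and endo_OE 5 held 3 and 4 (89.5 and 47.8 CPM), and RRM_OE 3 and RRM_OE 4 held 2 and 0. The endo_WT library, which comes from cells of the WT genotype without SRSF7-GFP OE, held 1 event (4.73 CPM), so the window was also nearly empty for the untagged protein in that library. Over the span of the cluster with 104 member nucleotides, WT was 8.54-fold above endo_WT, with a counting interval of 1.52 to 339. The ratio of WT was 1.73 to GFP_OE (1.01 to 3.21) and 0.946 to endo_OE (0.399 to 2.94, on 5 endo_OE events). The WT libraries used anti-EGFP and the others anti-SRSF7, so these ratios also span a change of antibody. In the piCLIP immunoprecipitates of SRSF7-GFP OE cells the window held 6 and 2 events in the monosomal and 2 and 0 in the polysomal libraries. The D27aa_noUV library held 6 events (172 CPM), unlike both irradiated D27aa libraries, and the WT_noUV library held 4 (44.9 CPM). RNA abundance in each line was not measured in these files, so fewer crosslinks per RNA and less RNA cannot be told apart. The same holds for every level given here.

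**Figure D2:**
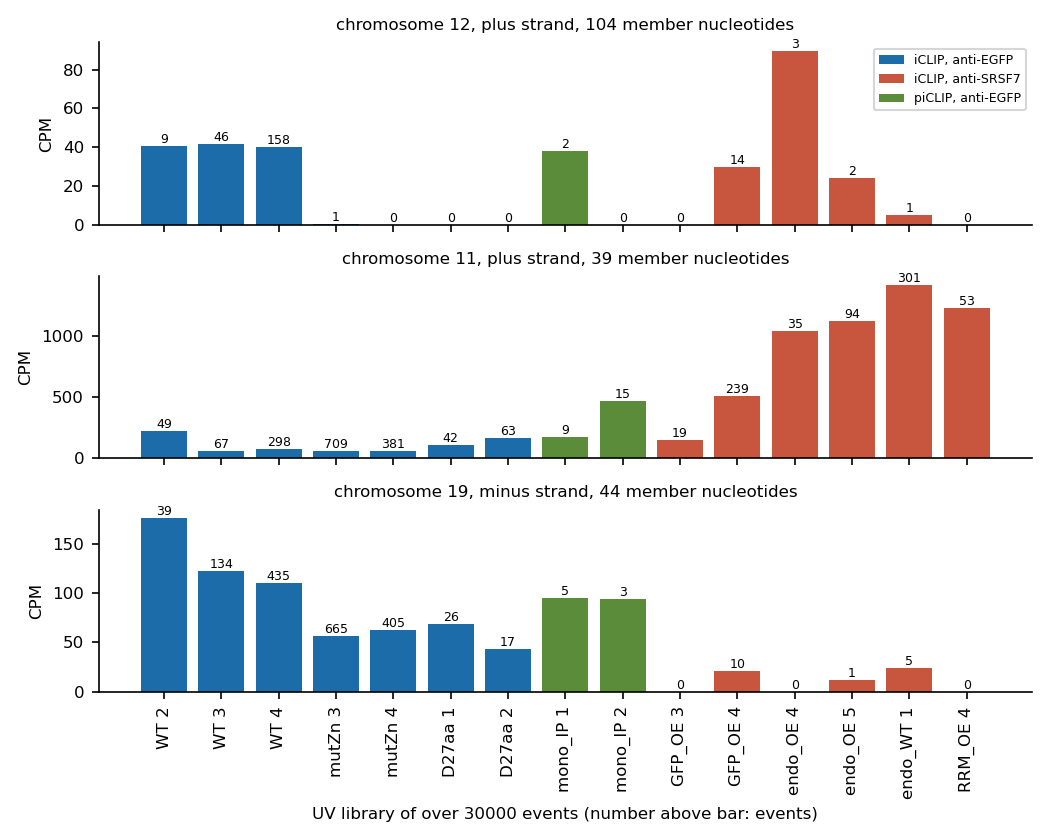
CPM over the span of 3 clusters (y axes, each on its own scale) in the irradiated libraries of more than 30000 events (x axis). The span runs from the first to the last member nucleotide of the cluster. Bars are coloured by antibody and assay, with the number of events above each bar. The chromosome 12 cluster is at about 40 CPM in WT and has 0 or 1 event in mutZn and D27aa, whereas mutZn 3 and mutZn 4 have 709 and 381 events on chromosome 11 and 665 and 405 on chromosome 19.

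Away from this stretch few clusters were strong in WT and empty in mutZn. Of 5756 clusters with 10 or more WT events within 30 nt of their span, 16 had no mutZn event. Of these, 9 lay in the chromosome 12 window, 3 on the plus strand of chromosome 14 between 20917258 and 20925359, and 2 on the minus strand of chromosome 7 between 27477856 and 27477991. Both chromosome 7 clusters had a mutZn peak just past the distance threshold, at 37 and 43 nt. The WT libraries held 2 and 1 events in their spans, against 23 and 10 within 30 nt, so most of these WT events lay in the flanks. The mutZn to WT ratio of CPM was under 0.1 in 105 of the 5756 clusters, 12 of them in the chromosome 12 window, and these 105 lay on 19 chromosomes. The median ratio of the 5756 clusters was 0.414, and 155 of them (2.69%) had more CPM in mutZn than in WT.

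The highest scores went with many raw mutZn events. The top cluster by score lay at chr11:68886994-68887032 on the plus strand, with 39 member nucleotides and a summed score of 4495, and it held the highest single score of 874 at position 68887017. WT 2, WT 3 and WT 4 held 49, 67 and 298 events on its members, and mutZn 3 and mutZn 4 held 709 and 381. A mutZn peak lay 31 nt away, just past the distance threshold. In CPM, WT was at 221, 60.9 and 75.4 and mutZn at 60.2 and 59.2, so WT 3 and WT 4 stood close to mutZn and WT 2 stood apart. This cluster was also the one with the most anti-SRSF7 events. Libraries that share a library identifier in the headers are called a batch here, and what that identifier stands for is not settled. GFP_OE 3 and RRM_OE 3, which share a batch, held 19 and 2 events (150 and 113 CPM). GFP_OE 4, endo_OE 4, endo_OE 5, endo_WT 1 and RRM_OE 4 share another batch and held 239, 35, 94, 301 and 53 events (507, 1044, 1124, 1423 and 1233 CPM). GFP_OE 4 was thus above GFP_OE 3 and RRM_OE 4 above RRM_OE 3, the last on 2 events. In these groups batch and replicate number cannot be told apart, and the part of the batch was not tested.

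A group of clusters on the minus strand of chromosome 19 between 5799275 and 5801760 followed the same pattern. The cluster at chr19:5801597-5801654 had 44 member nucleotides and a summed score of 754, and its nearest mutZn peak lay 587 nt away. Even so, mutZn 3 and mutZn 4 held 665 and 405 events over the 58-nt span of the cluster, or 56.4 and 62.9 CPM. WT 2, WT 3 and WT 4 held 39, 134 and 435 events (176, 122 and 110 CPM), and D27aa held 26 and 17 (69.0 and 43.7 CPM). Without UV, WT held 15 events (168 CPM), mutZn 8 (120 CPM) and D27aa 11 (315 CPM). All 3 irradiated WT libraries were above the irradiated mutZn and D27aa libraries, each no-UV library was above WT 4, and mutZn was low rather than absent. The cluster at chr19:5801732-5801760, with a mutZn peak 722 nt away, had 385 and 199 events in mutZn, 136, 104 and 259 in WT and 48 in the WT_noUV library (539 CPM). At chr19:5801047-5801086 the mutZn libraries held 573 and 288 events (48.6 and 44.7 CPM) and the D27aa libraries 102 and 95 (271 and 244 CPM). WT 2, WT 3 and WT 4 held 52, 125 and 305 events there (234.5, 114 and 77.2 CPM). Both D27aa libraries were thus above mutZn and above every irradiated WT library, unlike at chr19:5801597-5801654. At these clusters a mutZn peak was not called within 30 nt although raw mutZn events were plentiful. The 5000-nt window that holds most of these clusters had 160 members and 316 near sites, and mutZn was at 2496 and 2461 CPM over it.

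Over all clusters with a summed score of 100 or more, 163 in number, 143 had 10 or more mutZn events within 30 nt, with a median of 63 mutZn and 36 WT events. The mutZn to WT ratio could be formed for 162 of them and had a median of 0.551 with quartiles of 0.343 and 0.971. It was above 1 in 40 (24.7%) and under 0.1 in 3. The single cluster of this class with no mutZn event lay at chr3:88603786-88603814 on the plus strand. It had 8 member nucleotides and a summed score of 109, and not 1 of the 25 libraries held an event on them. Its score has no counterpart in the libraries analysed here. Of the 163 clusters, 9 had no WT event on their members, and the WT libraries held less than 10% of the score in 72.

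Other high-scoring clusters without a mutZn event varied in their WT coverage. The single nucleotide chr2:74073411 on the minus strand had a score of 65, and WT 3 held 15 events there while WT 4 held 1 and WT 2 held 0. Low counts were also present in the WT_noUV library (2 events), D27aa 2 (1 event), GFP_OE 3 (4 events), endo_OE 4 (1 event), endo_OE 5 (2 events) and endo_WT (3 events). The cluster at chr8:70722914-70722944 on the plus strand had a score of 64 with 0, 4 and 2 WT events. At chr11:74660303-74660331 and chr2:109754069-109754186, both on the plus strand and with a score of 69, WT 4 held 2 and 5 events and the other WT libraries 0. At chr11:50752983-50752985 on the minus strand the score was 62 and WT 4 held 2 events. Among 1468 clusters of score 30 or more, 41 had no mutZn event within 30 nt.

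Members were less clustered than near sites, although 47039 of them (66.7%) had another member within 30 nt. The median gap to the nearest member was 6 nt. The 70566 nucleotides formed 35863 clusters, of which 23527 (65.6%) were single nucleotides, against 44.7% single nucleotides among the 51990 clusters of near sites formed in the same way. There were 5942 clusters of 2 nucleotides, 2537 of 5 or more and 654 of 10 or more. Clusters of 5 or more held 31.6% of members but 73.9% of near sites. The next member downstream in coordinate lay at the adjacent nucleotide for 17.0% of members and for 39.1% of near sites. Of the 24026 windows of 5000 nt with a member, 12564 held a single one, whereas 1230 windows with 10 or more held 31.6% of all members. No near site was present in 14107 of the occupied windows (58.7%), which held 38.9% of members. The clusters with the next most member nucleotides had mutZn events. The cluster at chr2:174092636-174092749 on the minus strand, with 81 member nucleotides, had 100 and 39 mutZn events over its span. The cluster at chr11:87862607-87862693 on the plus strand, with 60 member nucleotides, had 103 and 63 over its span.

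Members lay on every autosome and on X, with 50.9% on the plus strand. Chromosome 11 had the most, 7952 (11.3%). The share of WT peak nucleotides that were far from mutZn peaks ranged from 15.5% on chromosome 13 to 28.3% on chromosome 14, with a median of 22.5% over the autosomes and X. Chromosome 17 was also low (16.4%) and chromosomes 5 and 8 were high (27.8% and 26.8%). The mitochondrial genome had 96 members, only 4.27% of its WT peak nucleotides, and chromosome Y had 16. Members without a mutZn event within 30 nt made up 12.5% of the members of chromosome 12, the highest share among the autosomes and X, and 4.44% of those of chromosome 11, the lowest. In the chromosome 12 window, 136 of 178 members had no mutZn event within 30 nt.

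**Figure D3:**
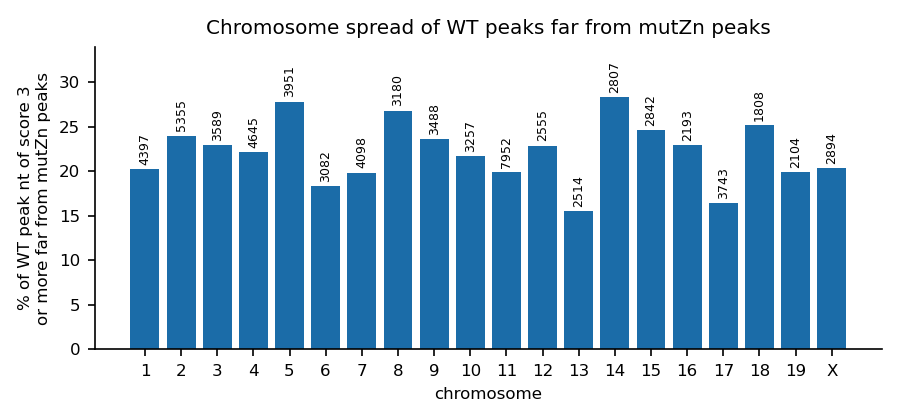
Percentage of WT peak nucleotides of score 3 or more that lie more than 30 nt from a mutZn peak (y axis) for each autosome and X (x axis), with the number of such nucleotides above each bar. The bars range from 15.5% (chromosome 13) to 28.3% (chromosome 14).

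Libraries that took no part in the rule also had a maximum of events at the member nucleotide. Events at the nucleotide were divided by the mean at 10 to 30 nt on either side. This ratio was 4.88 and 4.16 in GFP_OE, 3.62 and 4.37 in endo_OE, 4.79 in endo_WT, 4.72 and 3.60 in RRM_OE, and 3.83 and 4.17 in D27aa. In the same libraries the near sites had ratios of 1.65 to 2.14, so the ratio was higher at members in each of these 9 libraries. Near sites lay more often in clusters of 5 or more (73.9% against 31.6% of members). Their flanks thus held more peak nucleotides, and the part of this in the ratio was not tested. At members WT 2, WT 3 and WT 4 had 3.39, 2.76 and 5.53, and mutZn had 2.63 and 2.57, with the mutZn maximum also at the member nucleotide. The no-UV libraries of WT, mutZn and D27aa had 2.49, 2.13 and 2.52. The maximum of the mutZn_noUV and D27aa_noUV libraries lay 2 and 3 nt downstream on the strand rather than at the nucleotide. The piCLIP immunoprecipitates had ratios of 6.07 to 7.03, on 107 to 444 events at members. The libraries titled IgG, whose label lists anti-EGFP, had higher ratios on few events. These were 10.5 on 10 events in the monosomal and 16.9 on 73 events in the polysomal one. The maximum was therefore not particular to the piCLIP libraries titled IP. In the library without antibody the maximum lay at an offset of -47 nt, with 9 events at members. In the anti-SRSF7 library without UV it lay at an offset of 1 nt, with 10 events at members.

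**Figure D4:**
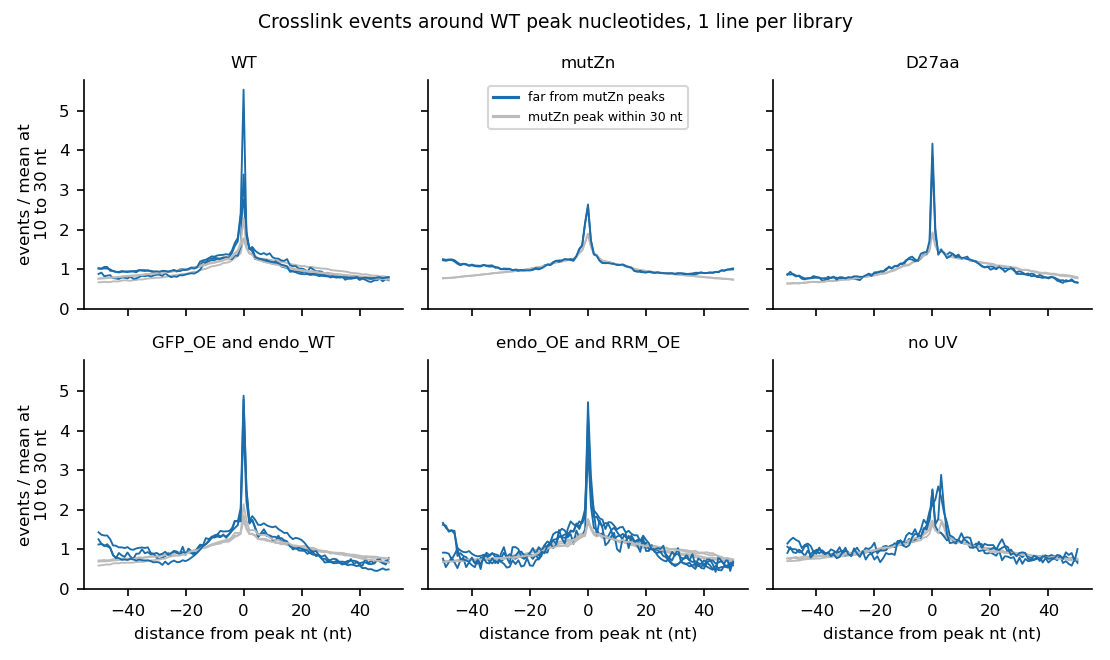
Crosslink events by distance from the peak nucleotide in nt (x axis), divided by the library's mean at 10 to 30 nt (y axis), with 1 line per library, for members (blue) and near sites (grey). Members have a narrow maximum at 0 in WT, D27aa and anti-SRSF7 libraries (up to 5.53 in WT 4), a lower one in mutZn (2.63 and 2.57), and near sites are flatter.

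Levels around the members were lower in mutZn than in the other irradiated iCLIP libraries, and D27aa overlapped WT. Mean CPM within 30 nt of a member was 2.66, 1.93 and 1.96 in WT, 1.02 and 1.02 in mutZn, and 2.12 and 2.03 in D27aa. The D27aa values lay inside the range of WT. Anti-SRSF7 libraries ranged from 2.14 (GFP_OE 4) to 3.57 (endo_WT), and the piCLIP immunoprecipitates from 0.838 to 1.54, on both sides of mutZn. The polysomal IgG library was at 0.729 and the library without antibody at 1.035. The no-UV libraries were at 2.47 for WT, 1.38 for mutZn and 1.75 for D27aa, on far fewer events, so in CPM the WT_noUV library was at the level of the irradiated WT libraries. Near sites were between 8.14 (mutZn 4) and 22.8 CPM, and both mutZn libraries (8.22 and 8.14) were lowest there too.

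The fraction of all events on WT peaks of score 3 or more that fell on members gave each library's weight on them. It was 8.72%, 6.19% and 10.2% in WT 2, WT 3 and WT 4, and 8.10% in D27aa 1 and in D27aa 2, so D27aa again lay within the spread of WT. It was 4.38% and 4.35% in mutZn. The GFP_OE libraries had 7.78% and 6.60%, endo_OE 6.75% and 7.43%, and RRM_OE 9.74% and 7.68%. These 3 groups overlapped or nearly touched, and with 2 libraries each the smallest two-sided p that an exact permutation test allows is 0.333, so none was run. The endo_WT library had the highest value of all, 12.5% (exact Clopper-Pearson 95% interval 12.1% to 12.9%, counting error only), and it is 1 library with no replicate. Without the chromosome 11 cluster its value was 11.5%. Its rank depended on the counting: with each position counted once it had 15.4% and WT 4 had 15.9%. At members and near sites of score 3 alone it had 22.8% while RRM_OE 3 had 25.6%. The anti-SRSF7 library without UV then had 27.3%, on 3 member events. The WT_noUV library had 6.31%, mutZn_noUV 4.37%, D27aa_noUV 5.93% and the library without antibody 2.17%, the lowest. When each position was counted once instead of each event, WT ranged from 9.76% to 15.9% and mutZn had 10.8% and 9.23%, so mutZn 3 then lay inside the WT range.

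**Figure D5:**
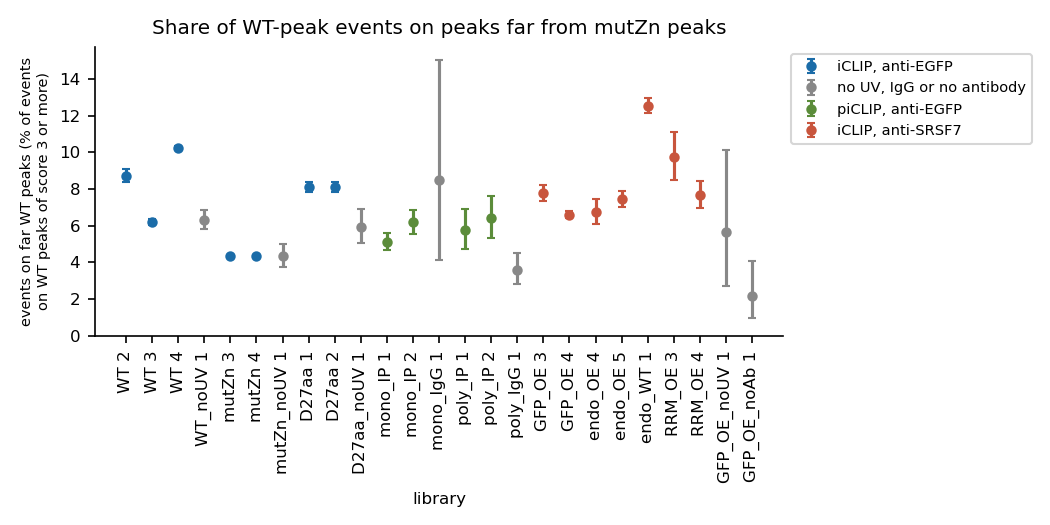
Events on members as a percentage of events on all WT peak nucleotides of score 3 or more (y axis) in each of the 25 libraries (x axis), with exact 95% binomial intervals and colours for antibody and assay. The values run from 2.17% (no antibody) to 12.5% (endo_WT), with mutZn at 4.38% and 4.35% and WT between 6.19% and 10.2%.

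Peaks of the other deposited lists were rare near members. A D27aa peak lay within 30 nt of 2.70% of members and of 21.2% of near sites, and a piCLIP peak within 30 nt of 0.577% and 6.87%. Scores differ between both sets, so the same shares were taken by score. At a score of exactly 3, a D27aa peak lay within 30 nt of 1.86% of members and 12.5% of near sites, and at 10 or more it was 10.2% and 48.7%. The D27aa list holds 34759 nucleotides and the mutZn list 2246120. A mutZn peak on the opposite strand lay within 30 nt of 0.138% of members and 0.195% of near sites. No event of any of the 25 libraries fell on 36.6% of members, and 3.31% had none within 30 nt. At the other end, 204 members were seen in all 3 WT libraries, 6844 (9.70%) in at least 1 irradiated anti-SRSF7 library, and 61 in 10 or more libraries.

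For tests across sites, WT peak nucleotides of score 3 or more at most 30 nt apart were joined into regions, events were summed per region, and limma-voom with Benjamini-Hochberg adjustment was fitted over all regions. Regions made only of members numbered 33368, of which 72 passed the filter on low values. A further 2425 regions held members beside near sites (8791 members), of which 352 passed. Members were chosen on WT and mutZn peaks, and a sparse region passes the filter through the libraries in which it is high. The counts below therefore describe the regions that passed and support no difference. Between mutZn and WT, 28.3% of the 2654 regions were called at an adjusted p of 0.05 (14.7% higher and 13.6% lower in mutZn). Of the 72 member regions, 26 were called, all lower in mutZn, in the contrast that chose them. Leaving out WT 2, WT 3 or WT 4 gave 97, 11 or 9 calls, leaving out mutZn 3 or mutZn 4 gave 3 or 7, and limma-trend gave 1. Between D27aa and WT, 19.6% of all tested regions were called, 16.3% higher and 3.35% lower in D27aa. Of the 72 member regions, 40 were called, 35 higher and 5 lower. The median log2 fold change was 1.35 over the 72, -0.27 over the 352 mixed regions (44 called) and -0.07 over the 2230 regions of near sites alone. Without WT 4, 2 of 32 tested member regions were called and both were lower in D27aa, while the median log2 fold change over the 32 was 2.58. Without WT 3 the count was 20, without D27aa 1 it was 14, without D27aa 2 it was 24, and without WT 2 it was 90 of 298 tested. For RRM_OE and for endo_OE against GFP_OE, not 1 member region passed the filter, so these comparisons could not be made at the members. Over all 187 regions tested there, 0.535% (1 region, higher in RRM_OE) and 0% were called.

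Besides both chromosome 12 clusters, another stretch with WT events and no D27aa event lay at chr11:106646521-106646572 on the minus strand, with 22 member nucleotides. D27aa held 0 events there in both libraries and WT was at 11.7 ± 2.39 CPM (SD, n = 3). Unlike on chromosome 12, mutZn 3 and mutZn 4 held 66 and 44 events there. At the chromosome 19 cluster starting at 5801438, WT was at 59.7 ± 9.78 CPM and D27aa at 22.1 ± 8.75 CPM (SD, n = 2).

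Some members were single nucleotides with piles of events in the D27aa libraries. At chr10:94573966 on the plus strand, D27aa 1 and D27aa 2 held 21 and 33 events, WT 2 held 3, the WT_noUV library 2, and WT 3, WT 4, mutZn 3 and mutZn 4 held 0. At chr17:66468410 on the plus strand, D27aa held 14 and 46 events, WT 2 held 3 and the WT_noUV library 4, while WT 3, WT 4 and both mutZn libraries held 0. Its score in the WT list was 17. At chr5:71640868 on the plus strand the D27aa libraries held 16 and 23 events, WT 2 held 4, the WT_noUV library 1, and no other library held any. These nucleotides were thus present without UV and absent from the deepest WT library.

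To count this kind of site, members with 4 or more events in both D27aa libraries were taken, a rule chosen after the values were seen. There were 34 such members, 12 of them on chromosome 19. At 16 of the 34 neither WT 3 nor WT 4 held an event. Of those 16, 9 had an event in WT 2, 6 in the WT_noUV library and 12 in an irradiated anti-SRSF7 library, 10 had no mutZn event, and 12 were clusters of 1 nucleotide. WT 2 and D27aa 1 share a batch, and WT 3, WT 4, mutZn 4 and D27aa 2 share another. D27aa 2 therefore had these piles while WT 3, WT 4 and mutZn 4 of its own batch had none at the 3 nucleotides named above.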

How the data were processed

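The authors deposited 1 signed score per crosslinked nucleotide, whose size is the number of cDNAs and whose sign is the strand, on mm9 with Ensembl 59, per the file headers. Per the file headers, peaks are positions kept at a false discovery rate below 0.05 after 100 permutations of scores in 15 nt neighbourhoods, with replicates summed. CASAVA 1.4 is named in the submitters' processing notes. Aligner and duplicate removal: not given in the sources used here. PCR copies may remain, so intervals and floors cover counting error only. Members and lists were chosen with earlier results of these data known. Scores were summed in absolute value, and CPM is per 1000000 events of the library. Their absolute values are cDNA counts, but the deposited column holds negative values and was recorded as a score, and regions were tested with limma-voom (limma 3.58.1, R 4.3.3) in place of the planned count test. Scaling used a trimmed mean of log ratios (30% of ratios and 5% of levels trimmed at each end). A region was tested when 2 libraries reached the CPM of 10 events at the median library total and 15 events were seen in all. The 7 irradiated anti-EGFP and the 7 irradiated anti-SRSF7 libraries were fitted separately, with group as the term. The fit was tested on simulated data. Replicates are libraries named in the titles, and p-values measure the spread between them. WT 3 and WT 4 share a replicate number in the headers. Clusters and 5000-nt windows named in the text were those of highest score, most members, most mutZn events, most anti-SRSF7 events, or highest score without a mutZn event. The deposited label of the piCLIP libraries titled IgG lists anti-EGFP as the antibody. Replicate numbers mark no shared culture in the labels. Batches are libraries that share a library identifier in the headers. Alternatives covered the distance, the score, the joining, the window, the filter, the scaling, the replicate block, the batch and leaving out each library.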

Additional observations from a re-analysis of the deposited data

How the results depend on the processing

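The number of members stayed within 1.5 times of 70566 at distances of 15 and 60 nt and was 45519 at 100 nt. It was 197461 at a score of 2 or more, 18146 at 5 or more and 3119 at 10 or more. When the events of the WT libraries analysed here had to reach 3, it was 3891 (added after seeing the data), and 235 to 3680 with 1 WT library left out, the lowest without WT 4. The number of clusters stayed within 1.5 times when joined at 15 or 100 nt. The share of members without a mutZn event was 63.5% at the exact nucleotide, 10.5% within 15 nt, 4.34% within 100 nt, 19.4% with the mutZn totals thinned to the WT total, and 10.3% to 17.1% with 1 mutZn library left out. The share with mutZn below WT was 40.5% at the exact nucleotide, where 41.5% of members had neither, 78.3% in 100 nt and 78.6% with each position counted once. It ranged from 56.3% (without WT 4) to 77.3% with 1 library left out.

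Member regions called between mutZn and WT, 26 in the report, numbered 6725 of 22117 without a filter and 1 by limma-trend on log2(CPM + 1). They numbered 3 with positions counted once and 14 with the batch as a block (added after seeing the data). With the replicate block on libraries 3 and 4 they numbered 153 of 518. With 1 WT library left out they numbered 9 to 97, the highest without WT 2. Between D27aa and WT, 40 in the report, they numbered 19 of 22117 without a filter, 15 by limma-trend and 4 with positions counted once. With the batch as a block they numbered 17 (12 higher, 5 lower). With 1 WT library left out they numbered 2 to 90. The lowest, without WT 4, held 0 higher and 2 lower, so the direction of the calls turned. The median log2 fold change over the 32 member regions tested there did not turn and was 2.58. For RRM_OE against GFP_OE, 117 of 6073 were called without a filter and none was tested with it. Apart from fits that left 1 library in a compared group, other settings stayed within 1.5 times. Same-numbered libraries of mutZn and WT deviated together with a correlation of 0.00184 over 9888 regions. Those of RRM_OE and GFP_OE did so with 0.646 over 112 regions, where equal numbers also share a batch. The labels do not tie the numbers to a shared culture, so the block served only as an alternative. Why these counts moved was not tested, beyond the number of regions tested. Depth limits the tests: 72 of 33368 member regions could be tested, and a group's count of 0 allows 0.165 CPM in mutZn but 3.92 CPM in D27aa.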
